A study of Mus musculus with 6 samples.

Results

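The miRNAs examined were the 5 mature products of the miR-199 and miR-214 genes named mmu-miR-199a-3p, mmu-miR-199a-5p, mmu-miR-199b-5p, mmu-miR-214-3p and mmu-miR-214-5p (the species prefix is dropped from here on), and they were found by these names among the 1881 mouse miRNAs of the array, with control features left out. They were measured in type H endothelial cells (ECs), which carry high CD31 and endomucin (CD31hiEmcnhi) and line the bone capillaries that accompany osteoprogenitors, and in type L ECs, which carry low levels of both (CD31loEmcnlo). Each cell type was represented by 3 arrays of biological replicates, with cells sorted from the bone marrow of wild type C57BL/6 mice aged 1 month, with cells bearing CD45 or Ter119 gated out per the methods. No treatment, transgene or deletion was given for either group, and whether mice were pooled was not given in the sources used here. The labels give the mice as male and the methods as female. The labels also place a culture on fibronectin in endothelial growth medium between the sort and the RNA extraction, which the methods for the arrays do not mention.

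MiR-199a and miR-214 are known as miRNAs of mesenchymal cells. One copy of miR-199a, from Mir199a-2, and miR-214 are cut from the same long noncoding transcript, Dnm3os, which runs opposite to the dynamin 3 gene and is needed for normal growth of the skeleton in mice. Each hairpin is cut into a 5p and a 3p arm, and an arm that enters Argonaute pairs with target mRNAs mainly through its seed. MiR-214-3p is known for restraining osteoblasts, in part through Atf4, and the miR-199a arms are known from cartilage and other connective tissue.

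RefSeq sequences of the GRCm38.p6 build were available for 4 of the 5 miRNAs and are shown because they decide what each probe can tell apart, with the seed (bases 2 to 8) in capitals.
miR-199a-5p: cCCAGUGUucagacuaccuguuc
miR-199a-3p: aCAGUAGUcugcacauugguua
miR-214-5p: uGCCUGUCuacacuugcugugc
miR-214-3p: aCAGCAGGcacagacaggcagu
miR-761: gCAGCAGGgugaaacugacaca
The 4 seeds differ from one another. MiR-761 is printed because it shares the seed of miR-214-3p, and it was detected on 0 of the 6 arrays. MiR-199a-3p is identical in every base to miR-199b-3p, which has no entry of its own on the array, so the signal given for miR-199a-3p may hold both.

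Mir199a-2 and Mir214 lie on the plus strand of chromosome 1 with 5444 bases between their hairpins, inside the spans of both Dnm3 and Dnm3os. In that copy miR-199a-5p lies at chr1:162217844-162217866 and miR-199a-3p at chr1:162217883-162217904. MiR-214-5p lies at chr1:162223397-162223418 and miR-214-3p at chr1:162223438-162223459. A second gene, Mir199a-1, encodes the same pair of arms on the minus strand inside Dnm2, with miR-199a-5p at chr9:21496537-21496559 and miR-199a-3p at chr9:21496498-21496519. The array therefore cannot tell which of the 2 genes the miR-199a signal came from, whereas miR-214 has 1 gene. Mir199b lies inside Dnm1.

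The longest array probes of miR-199a-5p and miR-199b-5p are shown because these miRNAs are so alike, with the base that differs in capitals.
miR-199a-5p probe: gaacaggtagtctGaacac
miR-199b-5p probe: gaacaggtagtctAaacactgg
Over the 19 bases they share, the probes differ by 1 substitution, G14A, counted from the 5′ end and written with the miR-199a-5p base first. MiR-199a-5p therefore pairs with the miR-199b-5p probes with 1 mismatch, and how much of the miR-199b-5p signal it gives was not tested.

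All 5 miRNAs were detected on all 6 arrays, where detection means that at least 1 probe exceeded 3 times its error. In the summed, quantile-normalized signal, miR-214-3p had the largest difference of the 5 and was higher in type H ECs, followed by miR-199a-5p, whereas miR-214-5p differed most in the authors' table and in the part of its deposited total that is its own. In the summed signal miR-199a-3p and miR-214-5p did not differ beyond the spread between arrays, and miR-199b-5p lay next to the threshold. Of the 5, 2 passed an adjusted p of 0.05 (limma, adjusted over the 311 miRNAs tested), where 86.8% of all miRNAs tested did. Both were higher in type H ECs, a call that 44.7% of all miRNAs tested received. A call at this threshold was therefore the usual result on these arrays, and the sizes of the differences say more about the members than the calls do. The median difference was 0.062 over the 5 miRNAs and 0.026 over all 311, on the log2 scale. In such bulk samples, fewer cells that make a miRNA and less of it per cell cannot be told apart.

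Each cell type had a slide and a scan of its own, and an effect of the slide therefore cannot be told apart from one of the cell type. Of 10 control features with clear signal, all 10 gave more signal for type H, with log2 differences of 0.22 to 1.46 (median 0.61) before normalization. A type H array detected 263 to 281 miRNAs and a type L array 295 to 309. Over the 231 miRNAs detected on all 6 arrays, the correlation of log2 signals was at least 0.998 within a cell type and 0.928 to 0.943 between them. The EC miRNA miR-126 was not detected on any array under any of its 4 names, with summed signals of 2.02 to 5.27 in type H and -2.52 to -1.52 in type L, although the cells are labelled as ECs. Those signals are below the detection limit and their difference was not tested.

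MiR-214-3p gave log2 normalized signals of 7.50, 7.60 and 7.60 in type H ECs and 6.91, 6.94 and 6.94 in type L ECs. Every type H array lay above every type L array, and the gap between the groups was several times the range within either. The means were 7.57 ± 0.057 and 6.93 ± 0.016 (SD, n = 3 each), a difference of 0.64 (SE 0.037, 95% interval 0.54 to 0.73) or 1.56-fold, with an adjusted p of 2.2e-05 in limma. Before normalization the signals were 212, 185 and 178 in type H and 110, 119 and 121 in type L, so the groups were also apart in the scanner's own values. The ratio of these means was 1.65. Without normalization the log2 difference was 0.72. The 10 control features differed toward type H by a median of 0.61 before normalization, and the 231 miRNAs detected on all arrays by -0.12. Among the 311 miRNAs tested, 75 had a higher difference toward type H.

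MiR-199a-5p, the arm that shares its hairpins with miR-199a-3p, gave log2 normalized signals of 7.20, 7.13 and 7.20 in type H ECs and 6.83, 6.83 and 6.91 in type L ECs. The groups did not overlap, although the gap was smaller than that of miR-214-3p. The means were 7.17 ± 0.04 and 6.86 ± 0.044 (SD, n = 3 each), a difference of 0.31 (SE 0.037, 95% interval 0.22 to 0.41) or 1.24-fold, with an adjusted p of 0.00039 in limma. Before normalization the signals were 169, 135 and 131 in type H and 106, 113 and 119 in type L, with a ratio of means of 1.29 and no overlap. Of all miRNAs tested, 111 had a higher difference toward type H.

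MiR-199a-3p, whose seed differs from that of its partner arm, gave log2 normalized signals of 8.77, 8.69 and 8.74 in type H ECs and 8.69, 8.69 and 8.74 in type L ECs. The groups overlapped, and 1 type H array alone lay above the type L range. The means were 8.73 ± 0.04 and 8.70 ± 0.031 (SD, n = 3 each), a difference of 0.026 (SE 0.034, 95% interval -0.059 to 0.11) with an adjusted p of 0.50 in limma. Before normalization the signals were 499, 391 and 384 in type H and 376, 420 and 444 in type L, again with overlap. The sign of its difference turned with the scaling, from 0.026 to -0.069 after scaling each array to the 75th percentile of its commonly detected miRNAs and to -0.11 in the authors' own normalized table.

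MiR-199b-5p, made from a gene of its own, gave log2 normalized signals of 6.83, 6.83 and 6.81 in type H ECs and 6.76 on all 3 type L arrays. The groups did not overlap after normalization. The equal type L values arose because the miRNA held the same rank, 52, on all 3 arrays, and quantile normalization gives equal ranks equal values. The means were 6.83 ± 0.014 and 6.76 ± 0 (SD, n = 3 each), a difference of 0.062 (SE 0.024, 95% interval 0.0022 to 0.12) with an adjusted p of 0.051 in limma. Before normalization the signals were 133, 110 and 102 in type H and 100, 108 and 113 in type L, which do overlap. Under 75th-percentile scaling the difference was -0.0045.

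MiR-214-5p, the other arm of the miR-214 hairpin, was read near the detection limit. Its log2 normalized signals were 0.79, 0.48 and 0.29 in type H ECs and 0.42, 0.68 and 0.38 in type L ECs, where a value of 0 is the floor. The groups overlapped, and the spread within each was wider than for any other member. The means were 0.52 ± 0.25 and 0.49 ± 0.17 (SD, n = 3 each), a difference of 0.026 (SE 0.15, 95% interval -0.35 to 0.41) with an adjusted p of 0.88 in limma. The interval allows for a difference as large as that of miR-199a-5p, so the data do not show that miR-214-5p was equal in the 2 cell types. Its sign turned under 75th-percentile scaling, to -0.12, and without normalization, to -0.024.

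**Figure D1:**
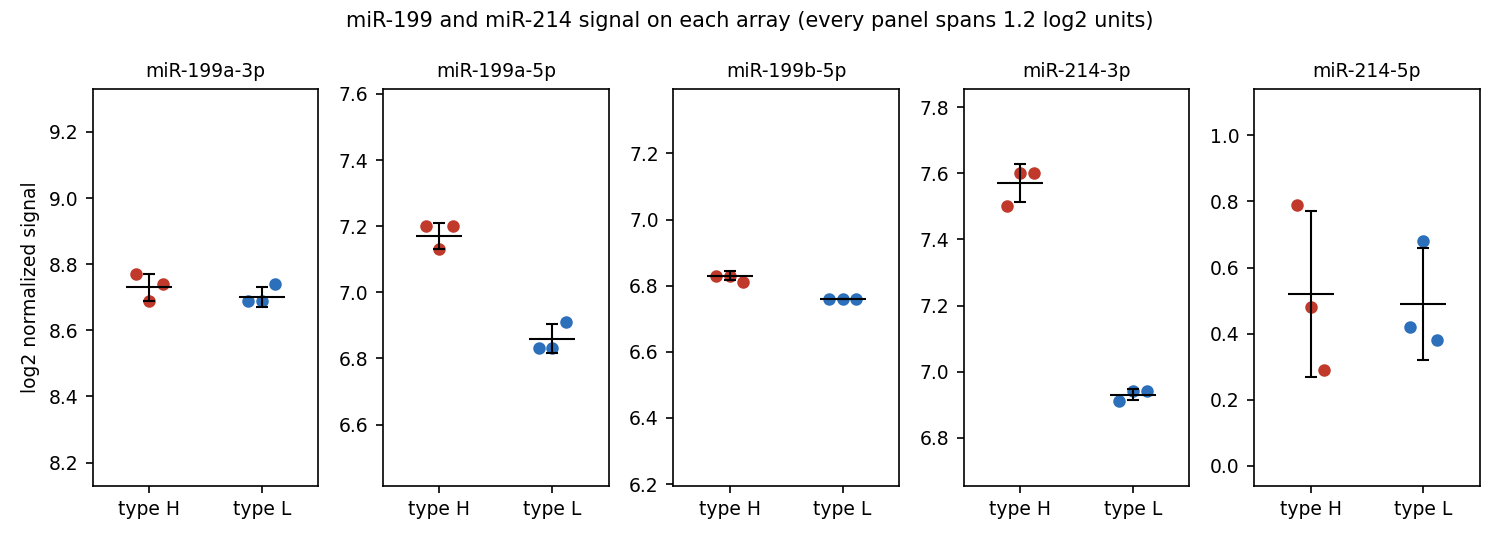
Log2 normalized signal (vertical axis, the same span in each panel) of the 5 miRNAs on each array of type H (red) and type L ECs (blue), with horizontal lines for the mean and bars for the SD of 3 arrays. MiR-214-3p and miR-199a-5p are higher on every type H array, miR-199b-5p by a narrow margin, and the other two overlap.

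With 3 arrays against 3, an exact two-sided permutation test of 1 miRNA cannot give a p below 0.1. It gave that smallest p of 0.1 for miR-214-3p, miR-199a-5p and miR-199b-5p, the 3 members whose groups did not overlap. It gave 0.7 for miR-199a-3p and 0.9 for miR-214-5p. Groups without overlap were found for 87.8% of all miRNAs tested, and for 45.7% with type H ECs higher, as in these 3 members.

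**Figure D2:**
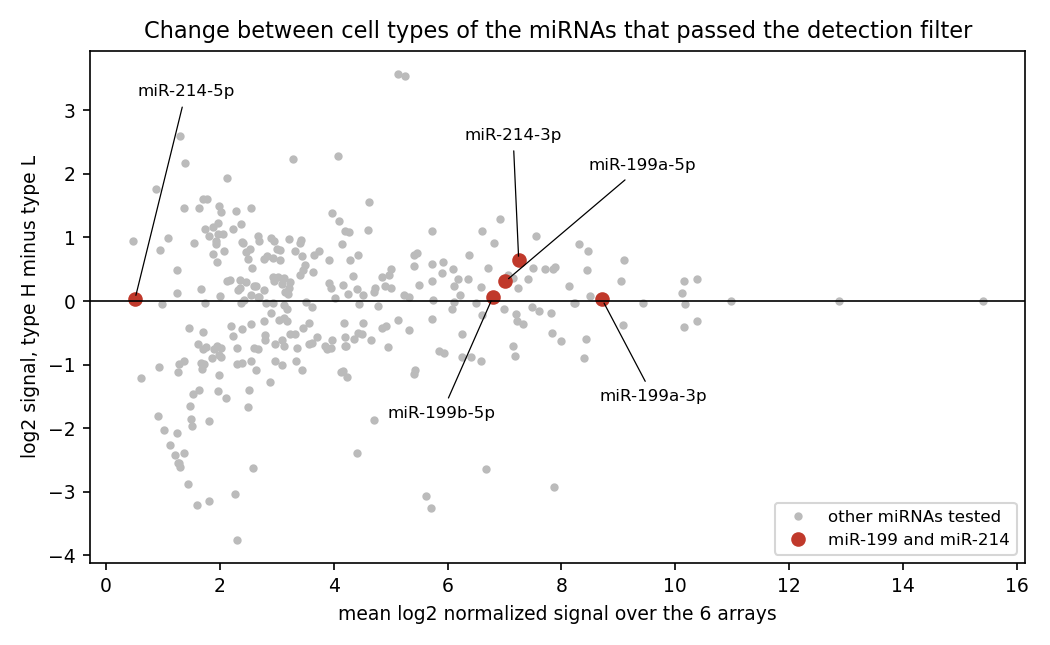
Difference in log2 signal, type H minus type L (vertical axis), against the mean log2 normalized signal over the 6 arrays (horizontal axis) for the 311 miRNAs tested, each a grey point, with the 5 miRNAs in red. The 5 red points lie between 0.026 and 0.64, inside the cloud of the other miRNAs.

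The scaling moved the median of all miRNAs, though not each miRNA by the same amount, and it bears on how each member is placed among them. The 231 miRNAs detected on all arrays had a median difference of 0.11 after quantile normalization, -0.22 after 75th-percentile scaling and -0.12 without normalization. Of the miRNAs called, 51.5%, 35.8% and 40.3% respectively were higher in type H ECs. Under 75th-percentile scaling 88.1% of the miRNAs tested were called and 31.5% were called higher in type H, and without normalization 75.9% and 30.5%, with the same 2 of the 5 members called each time. Relative to these medians, miR-214-3p stood at 0.53, 0.83 and 0.83. MiR-199a-5p stood at 0.21, 0.47 and 0.47. Both therefore lay above the typical detected miRNA with and without quantile normalization. The last 2 values of each member match by construction, because 75th-percentile scaling shifts all log2 values of an array above the floor alike. MiR-199a-3p stood at -0.08, 0.15 and 0.15, miR-199b-5p at -0.044, 0.21 and 0.21, and miR-214-5p at -0.081, 0.092 and 0.092, so the side on which these 3 fell depended on the scaling.

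Comparing the members with each other within an array asks whether arms and neighbours differed in the same way, and a factor common to a whole array cancels in it. A slide effect that differs between probes does not cancel, and each cell type had a slide of its own. The 10 control features differed between the slides by 0.22 to 1.46 (log2), so such an effect cannot be told apart from the cell type here. The within-array difference of miR-199a-3p minus miR-199a-5p was 1.56 ± 0.013 in type H and 1.84 ± 0.013 in type L ECs (SD, n = 3 each, log2). These values differed by -0.29 (SE 0.011, p = 0.1 in an exact two-sided permutation test, the smallest possible here). On these arrays the 2 signals thus did not differ between the cell types by the same amount. The miR-199a-3p signal may also hold miR-199b-3p, so the pair need not compare arms of the same hairpins. MiR-199a-5p and miR-199b-5p, which are close in sequence, were 0.35 ± 0.049 apart in type H and 0.096 ± 0.044 apart in type L ECs, and these values differed by 0.25 (SE 0.038). The levels themselves cannot be ranked between miRNAs, because each is read by its own probes.

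For the genomic neighbours miR-199a-3p and miR-214-3p, the within-array difference was 1.16 ± 0.091 in type H and 1.78 ± 0.027 in type L ECs, a change of -0.61 (SE 0.055). For the arms of miR-214, 3p minus 5p, it was 7.05 ± 0.31 and 6.43 ± 0.16, a change of 0.61 (SE 0.2). None of the 4 pairs overlapped between the cell types. Each gave the smallest p that an exact two-sided permutation test of 3 against 3 arrays allows, 0.1, which stayed 0.1 after Benjamini-Hochberg adjustment over the 4 pairs. The share of all other pairs without overlap was not counted. Among single miRNAs tested, 87.8% did not overlap, so a lack of overlap does not set these pairs apart. The last pair rests on the weak miR-214-5p signal and turned to -1.99 in the authors' table.

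Each of the 4 brighter miRNAs was read by 2 probes with 15 spots each, and their signals lay at 8.89 to 10 times their error with no saturated spot. Of the 12 probes of the 5 miRNAs, 7 passed the threshold with higher signal in type H ECs and 0 with higher signal in type L. Among those that did not pass, 3 probes of miR-214-5p sat at the floor on all 6 arrays. Over all 705 probes tested one by one, with probes at the floor kept, 75.6% passed, and 37.9% passed with higher signal in type H.

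The 2 probes of miR-214-3p are only 12 and 13 bases long and pair with its bases 11 to 22 and 10 to 22, outside the seed printed above. The 12-base probe gave 4.98, 4.95 and 5.0 in type H and 4.33, 4.38 and 4.38 in type L (log2). It differed by 0.61 (SE 0.02, adjusted p = 2.5e-05, limma over all probes). The 13-base probe gave 7.33, 7.46 and 7.43 in type H and 6.53, 6.58 and 6.59 in type L, and differed by 0.84 (SE 0.041, adjusted p = 7e-05). Both probes were thus higher on every type H array. The nearest other miRNA in sequence, miR-7018-5p, pairs with the 12-base probe with 1 mismatch. It was lower in type H ECs, at 3.49 against 4.20, a difference of -0.71 (SE 0.043, adjusted p = 2.6e-05 in limma). How much it or other RNAs add to the signal of these short probes was not tested.

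For miR-199a-5p the 19-base probe differed by 0.36 (SE 0.027, adjusted p = 0.00023) and the 18-base probe by 0.53 (SE 0.058, adjusted p = 0.00084), both higher on every type H array. For miR-199b-5p the 22-base probe differed by 0.11 (SE 0.037, adjusted p = 0.045) and the 21-base probe by 0.17 (SE 0.041, adjusted p = 0.014). Both probes of miR-199b-5p thus passed where their sum did not. For miR-199a-3p the 19-base probe differed by -0.028 (SE 0.038, adjusted p = 0.57) and the 20-base probe by 0.046 (SE 0.022, adjusted p = 0.12), so neither passed and they pointed opposite ways.

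MiR-214-5p was read by 4 probes of 14 to 17 bases with 7 or 8 spots each, and it was detected through the 17-base probe alone. The signal of that probe was 4.74, 3.59 and 4.03 times its error in type H and 3.09, 3.63 and 3.42 times in type L, just past the limit of 3. Its total was 1.87, 1.29 and 1.38 in type H and 1.2, 1.22 and 1.28 in type L before normalization, so the lowest type H value was just above the highest type L value. After normalization over all probes its log2 values were 0.96, 0.59 and 0.91 in type H and 0.09, 0.19 and 0.23 in type L, a difference of 0.65 (SE 0.11, adjusted p = 0.0048 in limma). The single probe therefore passed the threshold where the sum over the 4 probes did not.

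**Figure D3:**
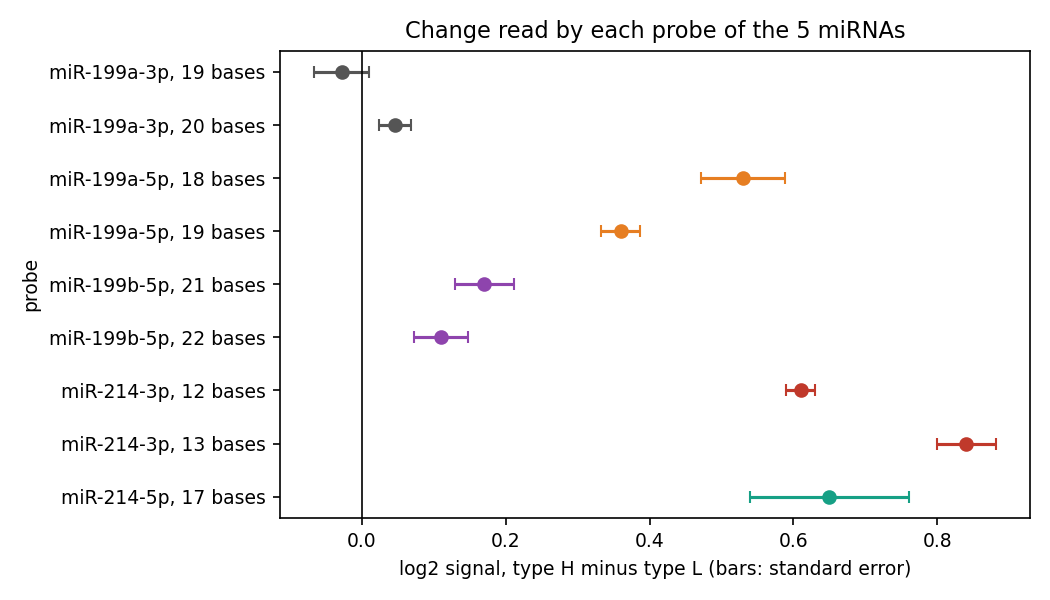
Difference in log2 signal, type H minus type L (horizontal axis), for each probe of the 5 miRNAs that lay above the floor, named with its length in bases (vertical axis), with bars for the standard error. Both probes of miR-214-3p (0.61 and 0.84) and of miR-199a-5p (0.36 and 0.53) lie to the right of 0, and those of miR-199a-3p lie on either side of it. The 3 probes of miR-214-5p that sat at the floor are left out.

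The deposited total for miR-214-5p cannot be read as its own signal. It stood at 214.2, 186.5 and 179.3 in type H and 111.0, 120.0 and 121.8 in type L, and on every array it equalled the total of miR-214-3p plus that of the 17-base probe of miR-214-5p. A fit of these totals gave miR-214-5p a difference of 0.61 (adjusted p = 0.00017 in limma), the same as the 0.61 it gave miR-214-3p. The part left after the miR-214-3p total is taken off gave 1.26 (adjusted p = 0.0026), with undetected miRNAs set to a constant. The authors' log2 table gave -0.22, 1.24 and 1.43 in type H and -1.35, -2.72 and -1.35 in type L, a difference of 2.63 (adjusted p = 0.011 in limma). By summed signal, miR-214-5p ranked 281, 263 and 262 among 281, 263 and 264 detected miRNAs in type H. In type L it ranked 295, 307 and 298 among 295, 309 and 298. The table's lowest value was on the array with the most detected miRNAs. How far the number detected set these quantile-normalized values was not tested. The part left over is the signal of the single 17-base probe, so these are the same readings under different normalizations and not separate results. With the table they were all higher in type H ECs but ran from 0.65 to 2.63, and no one size can be given for this arm.

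In the authors' table miR-214-3p, miR-199a-5p and miR-199b-5p had values close to those above, whereas miR-199a-3p was lower on the type H arrays than above. MiR-199b-5p was at 6.83, 6.83 and 6.81 in type H and 6.76 on each type L array, a difference of 0.062 (adjusted p = 0.053 in limma). MiR-214-3p was at 7.50, 7.59 and 7.59 in type H and 6.90, 6.93 and 6.93 in type L, a difference of 0.64 (adjusted p = 5.4e-05 in limma). MiR-199a-5p was at 7.19, 7.12 and 7.19 in type H and 6.83, 6.83 and 6.90 in type L, a difference of 0.32 (adjusted p = 0.00077). MiR-199a-3p was at 8.71, 8.55 and 8.62 in type H and 8.71, 8.71 and 8.78 in type L, and there the type L arrays were level with or above the type H arrays, by -0.11 (adjusted p = 0.11).

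**Figure D4:**
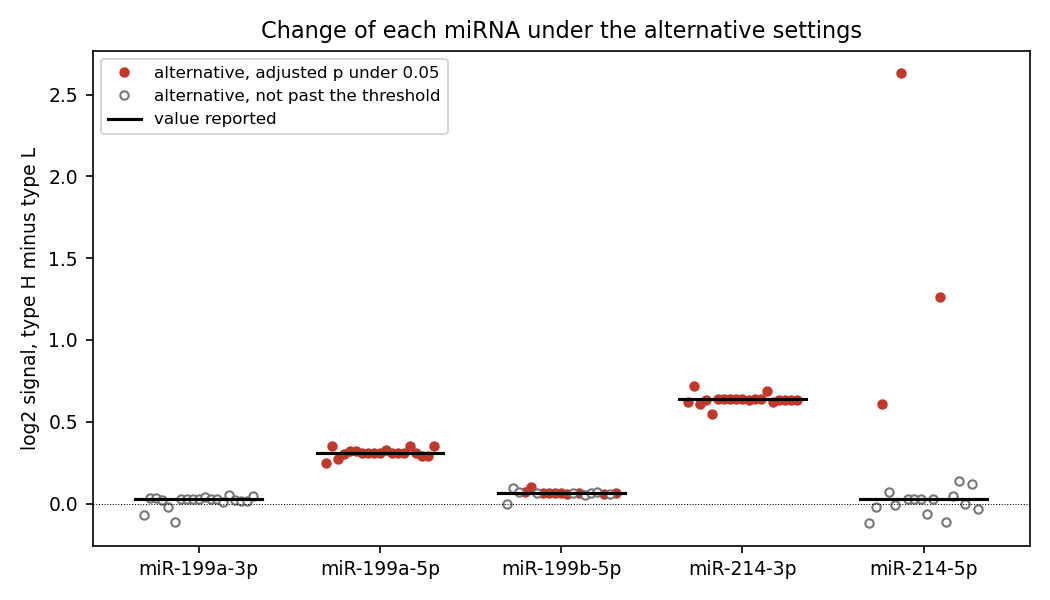
Difference in log2 signal, type H minus type L (vertical axis), of each miRNA under each alternative setting (points, filled where the adjusted p was under 0.05), with a black line at the value reported. MiR-214-3p stays between 0.55 and 0.72 and miR-199a-5p between 0.25 and 0.35, while miR-214-5p ranges from -0.12 to 2.63.

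The miRNAs with the most similar profile over the 6 arrays were sought among the other 230 that were detected on all of them, by the root mean square distance between log2 values centred on each miRNA's mean. The nearest to miR-214-3p were miR-6965-5p (0.044), miR-677-3p (0.047) and miR-15b-5p (0.048), against a median distance of 0.3. The nearest to miR-199a-5p were miR-152-3p (0.028), miR-30a-5p (0.03) and miR-140-5p (0.033). For miR-214-3p the nearest of the other four members, miR-199a-5p, came at rank 58 with a distance of 0.17, and for miR-199a-5p it was miR-199b-5p, at rank 62 with a distance of 0.13.

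The nearest to miR-199a-3p were miR-500-3p (0.019), miR-29c-3p (0.028) and miR-21a-5p (0.032). For miR-199b-5p they were miR-1249-3p (0.025), miR-500-3p (0.03) and miR-21a-5p (0.032). The flat profiles of miR-199a-3p and miR-199b-5p thus had 2 of 3 neighbours in common, and they stood at rank 6 of 230 to each other with a distance of 0.036. Of these neighbours, miR-21a-5p read 10.98 on all 6 arrays, because quantile normalization gives equal ranks equal values. It differed by 0.27 under 75th-percentile scaling and by 0.37 without normalization, so its flat profile depended on the scaling. MiR-214-5p had no close neighbour, with let-7i-5p, miR-503-5p and miR-7002-5p all at 0.16 and miR-199b-5p, the nearest member, at rank 9. These distances describe 6 arrays and carry no test.

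Other miRNAs linked with stromal and connective tissue cells were taken as a list of 17, of which 14 were detected on all 6 arrays and 2, miR-145a-3p and miR-335-5p, on none. Of the 15 tested, 7 were higher in type H ECs, 5 were higher in type L ECs and 3 did not pass, where 44.7% and 42.1% of all miRNAs were called higher in type H and in type L. The list had a median difference of 0.02, and all miRNAs tested had one of 0.026. The stromal list as a whole thus did not move in 1 direction.

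Its 3 largest differences toward type H were those of miR-145a-5p and miR-143-3p, a pair made together in smooth muscle and mural cells, and of miR-22-3p. MiR-145a-5p was at 2.98 ± 0.051 against 1.77 ± 0.033, a difference of 1.21 (SE 0.038), and was detected on 2 of the 3 type L arrays. MiR-143-3p was at 4.75 ± 0.045 against 3.65 ± 0.039, a difference of 1.1 (SE 0.037). MiR-22-3p was at 8.76 ± 0.015 against 7.86 ± 0.033, a difference of 0.90 (SE 0.029). Each had an adjusted p of 4.6e-06 in limma and kept its sign under the 3 scalings.

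Its 3 largest differences toward type L were those of miR-218-5p, miR-125b-5p and miR-99a-5p. MiR-218-5p, which is linked with osteoblast differentiation, was at 2.63 ± 0.04 against 3.30 ± 0.067, a difference of -0.68 (SE 0.045, adjusted p = 3.5e-05 in limma). MiR-125b-5p was at 9.95 ± 0 against 10.36 ± 0, a difference of -0.40 (SE 0.023, adjusted p = 2e-05), with equal ranks within each cell type. MiR-99a-5p was at 7.07 ± 0.022 against 7.38 ± 0.049, a difference of -0.31 (SE 0.035, adjusted p = 0.00031).

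Markers of other cells were set beside these results. The 2 mural miRNAs, miR-143-3p and miR-145a-5p, also on the stromal list above, were both higher in type H ECs, a call that 44.7% of all miRNAs tested received. Their summed signals were 27.3 to 37 in type H and 17.3 to 18.1 in type L before normalization. The other arm, miR-145a-3p, was detected on 0 arrays. The skeletal muscle miRNA miR-206-3p was detected on all 6 arrays and was higher in type H ECs by 0.62 (SE 0.053, adjusted p = 1e-04 in limma), at 6.22 against 5.61, while miR-1a-3p and miR-133a-3p, which mark mature muscle, were detected on none. The 7 haematopoietic miRNAs, miR-223-3p, miR-142a and miR-451a among them, were detected on 0 arrays, with summed signals of 5.66 to 7.92 in type H and 0.902 to 2.17 in type L. The 6 epithelial miRNAs, of the miR-200 family and miR-205, were likewise detected on 0 arrays. The part of mural or muscle cells in the miR-214-3p and miR-199a-5p differences was not tested.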

How the data were processed

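Signal of 5 named miRNAs was compared between 3 type H and 3 type L arrays. The authors hybridized 1-colour Agilent arrays (56430 spots, 4415 probes, 1881 miRNAs), extracted each spot with Feature Extraction 10.7.1.1 and deposited background-subtracted intensities, with a total signal and error per probe and per miRNA, not normalized between arrays. A second deposited file holds log2 values, quantile-normalized in GeneSpring 12.0 per the methods, with column medians of -3.32 to -3.26. Its direction is that of the intensities, and what was added at the floor is unknown. Across detected miRNAs its correlation with the summed probes was 0.962 to 0.997, and with the deposited totals 0.611 to 0.73. On each array 65 to 85 of these totals also held another miRNA's signal, so here a miRNA's signal was the sum of its probe totals.

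Sums were quantile-normalized over 1881 miRNAs, set to at least 1 and log2-transformed. The 311 miRNAs detected on each array of one cell type or of both were kept and fitted with limma 3.58.1 (lmFit, eBayes) in R 4.3.3, with p-values adjusted by Benjamini-Hochberg and called under 0.05. Probes were fitted likewise, and the script was tested on simulated data. The number of arrays limits the precision. The members, the lists and the tests were chosen with earlier results of these data known. The miRNAs named are the 5 members, the 3 nearest profiles of each, the 3 largest rises and falls of the stromal list and the marker lists, with miR-761 and miR-7018-5p added for their sequence after values were seen. Alternatives covered normalization, signal, filter, floor, test, array weights, a replicate block and leaving out each array.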

Additional observations from a re-analysis of the deposited data

How the results depend on the processing

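MiR-214-3p (0.55 to 0.72) and miR-199a-5p (0.25 to 0.35) kept their direction and passed the threshold under all 19 alternatives, and miR-199a-3p passed under 0. MiR-199b-5p passed under 10 of 19, with adjusted p from 0.0014 to 0.93, and miR-214-5p under 3 of 18, with adjusted p from 0.00017 to 1. Under 75th-percentile scaling, miR-199a-3p, miR-199b-5p and miR-214-5p turned to -0.069, -0.0045 and -0.12. Without normalization miR-214-5p turned to -0.024. From the deposited totals it passed at 0.61, and its pair with miR-214-3p fell to 0.00024. With normexp on the spots, miR-199a-3p and miR-214-5p turned to -0.019 and -0.0064, and miR-199b-5p passed at 0.1. In the authors' table miR-199a-3p turned to -0.11, miR-214-5p passed at 2.63 and the miR-214 pair turned to -1.99. MiR-199b-5p also passed with the mean processed signal (0.073), with detection on all 6 arrays, without a filter, with a floor of 8, with the methods' t-test (0.062 in each) and with array weights (0.061), where miR-214-5p turned to -0.062. The own part of the deposited total, a setting chosen after seeing the data, raised the members called to 4, with miR-199b-5p at 0.062 and miR-214-5p at 1.26, and turned the miR-214 pair to -0.62. The count over all miRNAs was 413 without a filter, where most spreads were 0 and limma's estimate is unreliable, and 167 with the floor of 8, where miR-214-5p has no value. The cause was not tested in these cases. The methods' t-test called 266 miRNAs at their threshold and 264 after Benjamini-Hochberg adjustment, with 3 members each way. With the replicate number as a block, miR-214-3p stayed at 0.64 and miR-199a-5p at 0.31, 2 members, 12 stromal miRNAs and 262 of all miRNAs passed, and miR-199b-5p had an adjusted p of 0.15, so it changed no call of a member. The numbers are not pairs by the labels, and the data gave no hint of it: the deviations of same-numbered arrays correlated at -0.0055, -0.025 and 0.12, and 2 of the 6 arrays correlated best with their own number. Leaving out 1 array gave -0.11 to 0.14 for miR-214-5p, turning its sign without type H replicate 1 (-0.11), type L replicate 1 (-0.0042) or type L replicate 3 (-0.036), and 0.054 to 0.068 for miR-199b-5p, which passed without type L replicate 1 or type L replicate 3. It gave 0.011 to 0.051 for miR-199a-3p, 2 to 3 members called and 261 to 272 miRNAs called over all. With 3 arrays a group the precision is limited, most of all for miR-214-5p, whose signal lies near its detection limit.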
